A study of Mus musculus with 24 samples.

Results

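How much kidney RNA levels differed between mice that had been given the same treatment, and which genes differed together, was described in the 18 diabetic kidneys of a series of 24 arrays. The 18 arrays were chosen by their labels: 9 of the group DKD and 9 of the group DKD+enarodustat. All mice were male Crl:CD1(ICR), an outbred stock, so that littermates and cage mates are not genetically identical. DKD mice received alloxan intravenously at 90 mg/kg, a toxin of the insulin-making beta cells, 3 days before they were sorted into groups, and then ate normal feed. DKD+enarodustat mice received the same alloxan dose and feed that held 0.01% (w/w) enarodustat, a drug that blocks the oxygen-sensing enzymes which send hypoxia-inducible factor (HIF) to be degraded. The diabetic groups were matched on blood glucose and body weight, and the kidneys were collected 16 days after grouping. The remaining 6 arrays came from sham mice that received vehicle in place of alloxan, and only their standard deviations (SDs) are given, as values. Each array is taken as 1 mouse, because the study text counts its groups in mice. The hour of collection, feeding state and glucose of each mouse are not given in the sources used here.

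In a whole kidney, levels move with the state of the tubule cells and with the make-up of the tissue. Fasting and lipid supply act on the nuclear receptor PPAR alpha, which turns on fatty acid oxidation and ketone synthesis in the proximal tubule. Male sex hormone sets a large group of proximal tubule genes in the mouse. The circadian clock drives a loop of activators and repressors that swings over the day. In bulk RNA, a larger number of cells of a type and more RNA per cell cannot be told apart.

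Levels are log2 spot signals above or below the 75th percentile of their own array, so 1 unit is a doubling. A gene was measured if its probe was well above background on all 18 diabetic arrays, which held for 15259 of 22911 named genes. The labelled tissue was borne out by its markers: all 16 proximal tubule markers were measured, at a median level of 6.43 against 0.27 for all genes, as were all 10 podocyte markers. Markers of neighbouring tissues were fewer and lower, with 6 of 13 adrenal and 5 of 13 adipocyte markers measured, at medians of -2.36 and -1.46. The 75th percentile lay at a signal of 187 to 388, and 63.6% to 75.4% of spots were well above background.

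3 stretches of promoter sequence are shown as examples, each picked by hand with a motif that it holds. They do not stand for the other genes of their sets. Fabp1 encodes the liver-type fatty acid binding protein and rose with Cyp4a14, Top2a encodes the topoisomerase that untangles DNA in dividing cells, and Prc1 encodes an organiser of the mitotic spindle that rose with Top2a. The sequences are RefSeq's for assembly GRCm38.p6 and end at the base before the annotated start. They run 5′ to 3′ on the gene's strand, and capitals mark the motifs searched.
Fabp1, chr6:71199679-71199878, plus strand: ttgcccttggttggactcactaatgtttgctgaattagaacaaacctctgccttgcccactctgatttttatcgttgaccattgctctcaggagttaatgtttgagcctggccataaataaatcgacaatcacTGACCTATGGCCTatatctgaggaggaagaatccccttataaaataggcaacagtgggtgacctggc
Top2a, chr11:99024190-99024389, minus strand: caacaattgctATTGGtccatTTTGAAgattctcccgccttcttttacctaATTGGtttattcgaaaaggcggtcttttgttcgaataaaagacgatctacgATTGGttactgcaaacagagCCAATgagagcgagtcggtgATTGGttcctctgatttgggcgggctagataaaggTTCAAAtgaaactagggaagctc
Prc1, chr7:80294356-80294475, plus strand: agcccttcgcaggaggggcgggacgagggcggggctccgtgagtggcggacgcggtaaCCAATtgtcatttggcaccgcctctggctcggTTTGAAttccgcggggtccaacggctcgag

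In Fabp1 the capitals are a match on the minus strand to the direct repeat bound by PPAR alpha and its partner RXR, searched on both strands as AGGNCA and AGGNCA with any 1 base between them, 67 to 55 bases before the start. In Top2a and Prc1 they are the CCAAT box and the cell cycle element TTTGAA, each searched on both strands; the matches of these motifs do not overlap. Top2a holds 5 CCAAT matches and 2 TTTGAA matches in the 200 bases shown. Prc1 holds 1 of each, the CCAAT match 62 to 58 and the TTTGAA match 30 to 25 bases before the start. Over the 250 bases before the start, 0.338% of 32851 promoters hold the PPAR repeat, 33.8% a CCAAT match and 16.0% a TTTGAA match. A match is a description of letters and does not show binding.

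Most genes differed little between mice of a group. The SD within a group, pooled over both diabetic groups, had a median of 0.28 (log2), with 5% of genes under 0.13 and 5% over 0.65. An SD over 1 was reached by 98 genes, or 0.642%. The median SD was 0.28 in DKD (n = 9), 0.26 in DKD+enarodustat (n = 9) and 0.18 in sham (n = 6). On the array slides, all 6 sham arrays lay in row 1 and all 9 DKD+enarodustat arrays in row 2. DKD had 6 arrays in row 1 and 3 in row 2. Row and group can therefore not be told apart when values of the groups are set side by side, and the part of row was not tested. The same genes tended to be variable in both diabetic groups: over genes, which are not independent replicates, the SDs in the groups had a Spearman rho of 0.78. Repeat spots bounded the error of reading an array. For 292 probes spotted 10 times, the SD among spots had a median of 0.0399, against a pooled SD between mice of 0.327 for the same probes; errors in extraction and labelling are not part of the first value.

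Among genes above the median level, the smallest SDs were those of Mta2, Fam91a1, Lsm14a, Camk2g and Tbc1d25. Mta2, a subunit of the NuRD chromatin remodelling complex, had an SD of 0.05 and lay between 1.60 and 1.74 in DKD and between 1.66 and 1.76 in DKD+enarodustat.

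**Figure D1:**
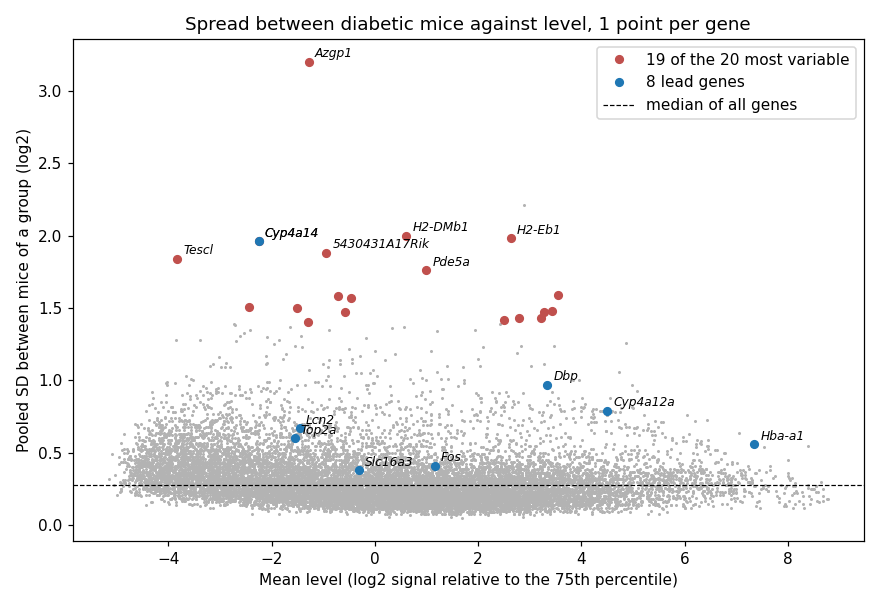
Pooled SD between mice of a group (log2, y axis) against the mean level over the 18 diabetic arrays (log2 signal minus the array's 75th percentile, x axis), 1 point per gene, with the dashed line at the median of 0.28. 19 of the 20 most variable genes (red) lie at or above an SD of 1.40 at levels from low to high, and the 8 lead genes (blue), described further on, range from 0.38 for Slc16a3 to 1.96 for Cyp4a14, which is in both sets.

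Azgp1 was the most variable gene, with an SD of 3.20. It encodes zinc-alpha-2-glycoprotein, a secreted protein with a class I-like fold. DKD arrays ran from -4.04 over a median of 1.79 to 2.88, and DKD+enarodustat arrays from -4.29 over -4.20 to 2.10. The levels fell into a low and a high set: 10 of the 18 lay below a gap of 5.40 that held no array. Both sets occurred in each diabetic group, and the sham SD was 3.83.

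Cyp4a14, a fatty acid omega-hydroxylase that responds to PPAR alpha, had an SD of 1.96. It ran from -4.31 over a median of -2.67 to 0.91 in DKD, a 37.3-fold range, and from -4.27 over -3.11 to 0.10 in DKD+enarodustat, a 20.8-fold range. Across both groups 11 arrays lay below a gap of 1.98, and each group had arrays on both sides of it. The levels overlapped widely between the groups, and the sham SD was 0.70.

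Genes of the class II antigen-presenting complex were also at the top, but not all of them. H2-DMb1, which helps to load peptides, had an SD of 2.00, and H2-Eb1, a class II beta chain, 1.98. In DKD, H2-Eb1 ran from -1.65 over 2.77 to 4.21, and in DKD+enarodustat from -1.10 over 3.61 to 4.92. Across both groups 3 arrays lay below a gap of 3.21. H2-Aa and H2-Ab1, the chains of the other class II molecule, had SDs of 0.88 and 0.48, and Cd74, the invariant chain that escorts class II molecules, 0.40. H2-Aa and H2-Eb1, next to each other among the genes measured, had an r of -0.59 over the 18 arrays with group means removed. Over all 15 macrophage and neutrophil markers, with H2-Eb1 the highest and Cd68 the lowest, the median SD was 0.40, against 0.28 for all genes.

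Pde5a, the phosphodiesterase that breaks down cyclic GMP, had 3 arrays below a gap of 3.34, at an SD of 1.76. It ran from -3.17 over 1.72 to 2.37 in DKD and from -2.66 over 1.51 to 2.11 in DKD+enarodustat. Pde5a was also the 1 gene of the 20 most variable that differed between the array slides (adjusted p = 0.0355, limma). Cyp24a1, the enzyme that inactivates vitamin D hormone in the tubule, ran from -0.75 over 2.67 to 4.05 in DKD and from 0.89 over 2.87 to 5.12 in DKD+enarodustat, with an SD of 1.43. H4c4, a histone H4 gene, had an SD of 1.47 and a second probe that ordered the arrays the same way (r = 0.99). Car3, a carbonic anhydrase abundant in fat and muscle, had an SD of 1.47. The other adipocyte markers measured were steadier: Lipe 0.37, Lep 0.29, Plin4 0.28 and Fabp4 0.17, and the defining markers Adipoq and Plin1 were not among the genes measured. The part of fat tissue in the spread of Car3 was not tested.

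2 of the 20 owed their rank to 1 array each. Eif4g1, a scaffold of translation initiation, lay at -2.77 on 1 DKD array and between 3.54 and 4.21 on the other 17. Its second probe had an SD of 0.29 and an r of -0.07 with the first. Gas1, a membrane protein of hedgehog signalling, lay at 5.49 on 1 DKD+enarodustat array and at -0.67 or lower on the rest. Dnm1, a dynamin of vesicle fission, had an SD of 1.42 by the chosen probe and 0.18 by its second probe (r = 0.38). Also among the 20 were Tescl, Syt10, Prxl2b, Pla2g2c, Ceacam13, Tssk5, 5430431A17Rik and 9430078K24Rik. The gene at rank 20, Tssk5, had an SD of 1.40, and that at rank 21, Efna2, 1.39.

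**Figure D2:**
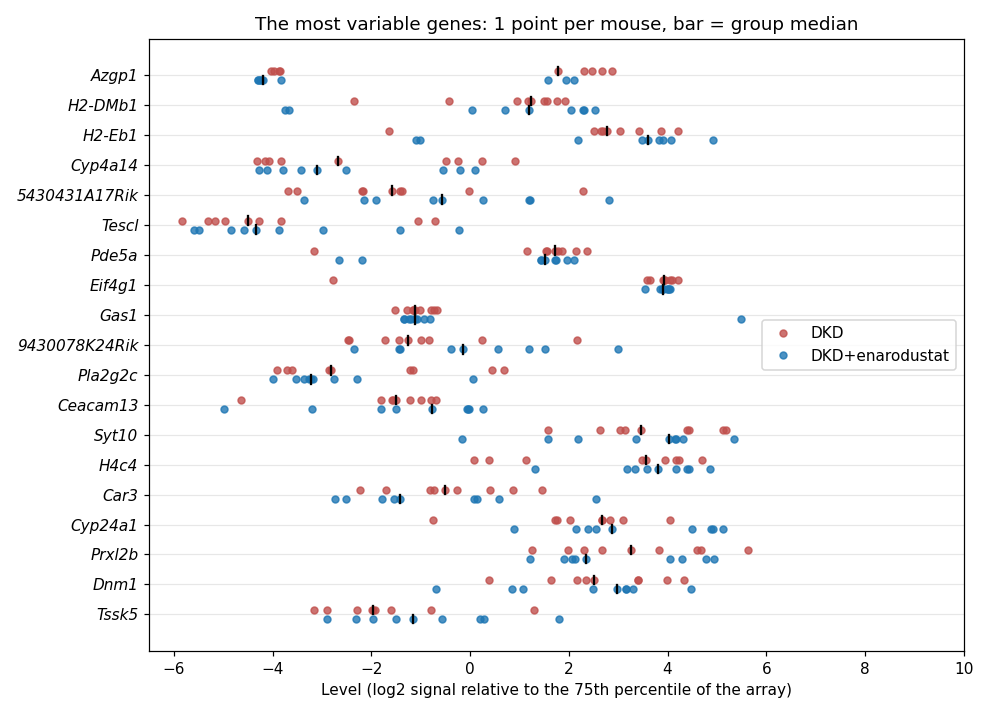
Levels of 19 of the 20 most variable genes (x axis, log2 signal minus the array's 75th percentile), 1 point per mouse in DKD (red) and DKD+enarodustat (blue), with a bar at each group's median. Azgp1 splits into a low and a high set in both groups, and Eif4g1 and Gas1 each have 1 point far from the rest. Cyp4a14 has points on both sides of a gap of 1.98 in each group, without a group boundary.

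The list of the 20 depended on the filter and the measure of spread. When a gene needed to be well above background on only 5 of 9 arrays in each group, 16730 genes were measured and 2 of the 20 remained in the list. By the median absolute deviation, which takes no notice of 1 or 2 far arrays, 8 remained. By the slide-corrected SD 17 remained, and 14 after normexp and quantile normalization. That normalization lowered SDs in general, to a median of 0.18 over all genes. It lowered 5 of the 19 SDs described here by over 1.5 times: Azgp1 to 2.06, Cyp4a14 to 1.05, Tescl to 0.76, Pla2g2c to 0.92 and Ceacam13 to 0.71. A second probe was available for 5382 genes, and its median r with the chosen probe was 0.70, with 90.5% above 0. Among the 300 most variable genes 59 had a second probe, with a median r of 0.80, and 19 of them had an r under 0.3.

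Larger patterns over all genes went with the brightness of the array and with the slide. The first principal component of the deviations from the group means held 26.3% of the variance and went with the 75th percentile of the array (r = -0.77, Spearman rho = -0.75, permutation p = 0.00011 and 0.00077; r = -0.90 in DKD, -0.74 in DKD+enarodustat, -0.88 with slide means removed and -0.69 without the 2 arrays farthest from the median brightness). Levels are themselves taken relative to this 75th percentile, so part of the correlation may be built in. The permutation p does not allow for that. The second component held 17.2% and lay 90.6% between the 3 slides. Each slide held 3 arrays of each diabetic group, so the slide and the mice on it cannot be told apart. By limma's F test 1212 of 15259 genes differed between slides (7.94%, adjusted p under 0.05). None of the members of the PPAR alpha, proliferation, male-biased, red cell, clock, immediate early or injury lists did. Of 6 adrenal markers 3 did.

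Lists of genes that share a role were read for their median correlation between members, which was 0.02 over all pairs of genes measured. The proliferation genes stood highest at 0.68 over 33 genes, with 95.5% of pairs positive. Male-biased kidney genes followed at 0.55 (12 genes), red cell genes at 0.43 (7), heat and cold response genes at 0.38 (10), PPAR alpha targets at 0.35 (27), adrenal markers, of which 3 differed between slides, at 0.35 (6) and podocyte markers at 0.31 (10). Clock genes, whose loop is known to hold members that peak at opposite times, had a median r of 0.14. Markers of the thick ascending limb and distal tubule had the lowest value, -0.12. The median SD was 0.57 for male-biased genes, 0.52 for proliferation genes, 0.50 for clock genes, 0.46 for PPAR alpha targets and 0.27 for HIF targets, against 0.28 for all genes.

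**Figure D3:**
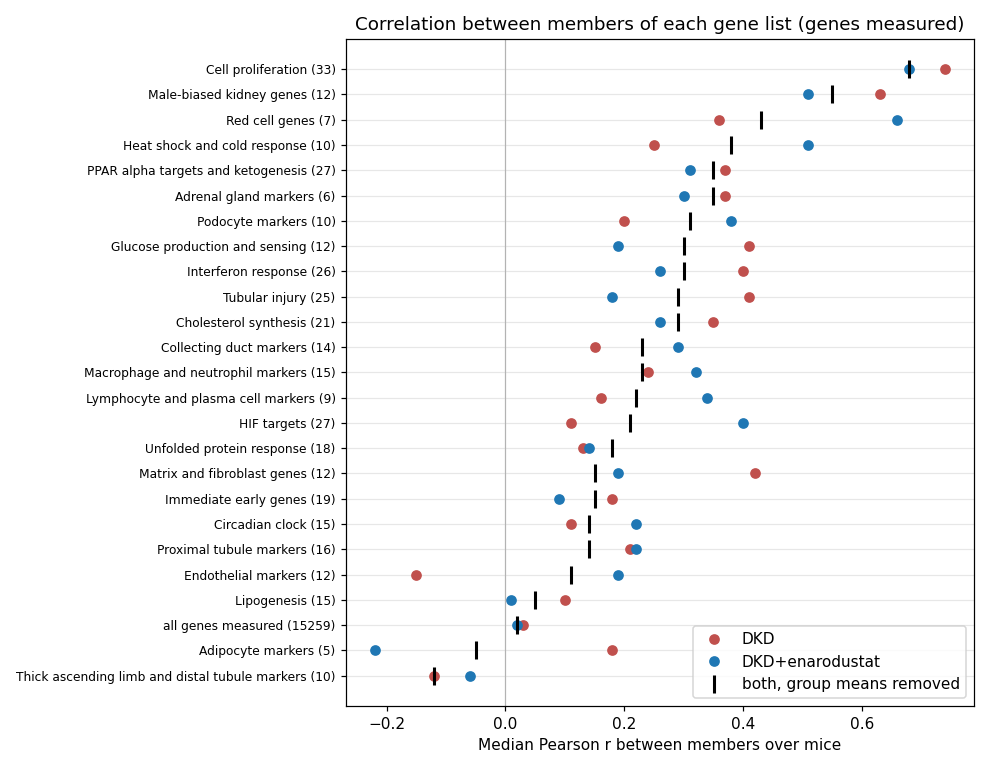
Median Pearson r between the members of each gene list (x axis) over the 9 DKD arrays (red), the 9 DKD+enarodustat arrays (blue) and all 18 with group means removed (black bar), with the number of genes measured in brackets. Proliferation genes lie at 0.74 and 0.68, while all genes lie at 0.03 and 0.02.

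Each of 8 lists had a lead gene, and every other gene was regressed on it over the 18 arrays with the group as a term, so that slopes (log2 per log2) use only differences between mice of a group. Rose and fell here mean with the lead gene, from mouse to mouse, at an adjusted p under 0.05 (limma, over 15258 genes). The lead gene was the first of its list that was measured on all 18 arrays. The lists and their order were set with earlier results of these data known. The p-values are thus not those of lead genes chosen blind to the data.

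Some of the PPAR alpha targets moved with Cyp4a14. With Cyp4a14, 65 genes rose (0.426% of those tested) and 113 fell (0.741%), and 10 of the 26 other list members rose and 1 fell. The omega-hydroxylase Cyp4a10 rose by 0.46 ± 0.05 (SE) per unit of Cyp4a14 (adjusted p = 0.000264, limma), with an r of 0.92 in DKD and 0.87 in DKD+enarodustat, and 0.89, 0.89 and 0.96 within the 3 slides. Cyp4a31 (0.35), of the same family, Fabp1 (0.42), the fasting-induced transcription factor Creb3l3 (0.56), the thiolases Acaa2 (0.22) and Acaa1b (0.12), and Pdk4 (0.31), which holds glucose carbon out of mitochondria, rose as well. Acot2 (0.19) and Vnn1 (0.16) rose too. Cyp4a10 and Cyp4a31 are related to Cyp4a14, and Cyp4a10 lies next to it among the genes measured, so these may share probe signal with it. Bdh1, which interconverts the ketone bodies, fell (-0.14). Acot1 and the fatty acid transporter Cd36 did not pass, with slopes of 0.32 and -0.16 and adjusted p of 0.0723 and 0.0764 (limma).

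Outside the list, Gsta2 (0.52) and its neighbour Gm10639 (0.50) were among the genes that rose most clearly. Gsta2 is a glutathione transferase of detoxification, and since Gm10639 and Gsta2 had an r of 1.00 and lie next to each other, near-identical copies may share probe signal. Those that fell most clearly were 0610031O16Rik (-0.37), the motor protein gene Myo5a (-0.32), Mpped1 (-0.35) and the phosphatase Mtmr7 (-0.28). The adjusted p of these 4 was between 6.08e-05 and 0.000453 (limma). With slide as a block, 40 of the 65 and 56 of the 113 still passed, and 8 of the 10 risen members. Of the 65 genes and Cyp4a14, 51 had a promoter in the table, and Fabp1 was the 1 with the PPAR repeat shown above (1.96%, against 0.400% of 27025 genes).

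The count of genes that move with Cyp4a14 rested partly on single arrays. It was 83 without DKD replicate 2, 113 without DKD replicate 4, 116 without DKD+enarodustat replicate 6 and 97 without DKD+enarodustat replicate 8, against 178 with all.

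Proliferation genes formed the tightest list. With Top2a 63 genes rose (0.413%) and 2 fell (0.0131%), among them 20 of 32 other list members. Top2a ran from -3.28 over -1.74 to -0.97 in DKD and from -1.76 over -1.54 to -0.62 in DKD+enarodustat, with an SD of 0.60 (0.35 after normexp and quantile normalization). Ccna2, cyclin A2 of S phase and mitotic entry, rose by 0.96 ± 0.09 (adjusted p = 2.99e-05, limma). Prc1 (1.05), the condensin subunit Ncaph (0.67) and the spindle protein Nusap1 (0.83) had the same adjusted p. The mitotic genes Ccnb1, Ccnb2, Birc5, Aurka, Plk1, Cdc20, Cdk1 and Mki67 rose too. The replication helicase genes Mcm3, Mcm4 and Mcm5 did not pass, with slopes of 0.44, 0.33 and 0.69 and adjusted p of 0.225, 0.205 and 0.0515. The 2 genes that fell were 4931440P22Rik (-0.51) and Fam110c (-0.44).

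1 array lay far below the others for these genes. Ccna2 was at -3.89 on DKD replicate 3 against a DKD median of -2.14, and Top2a and Cyp4a12a had their lowest DKD value on the same array. Without it 31 genes moved with Top2a in place of 65. After normexp and quantile normalization the number was 32. Of the 63 genes and Top2a, 52 had a promoter in the table; 65.4% of these held a CCAAT match and 36.5% a TTTGAA match, against 37.5% and 18.3% of all 27025 genes. The 51 genes of the Cyp4a14 set held them at 56.9% and 11.8%.

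**Figure D4:**
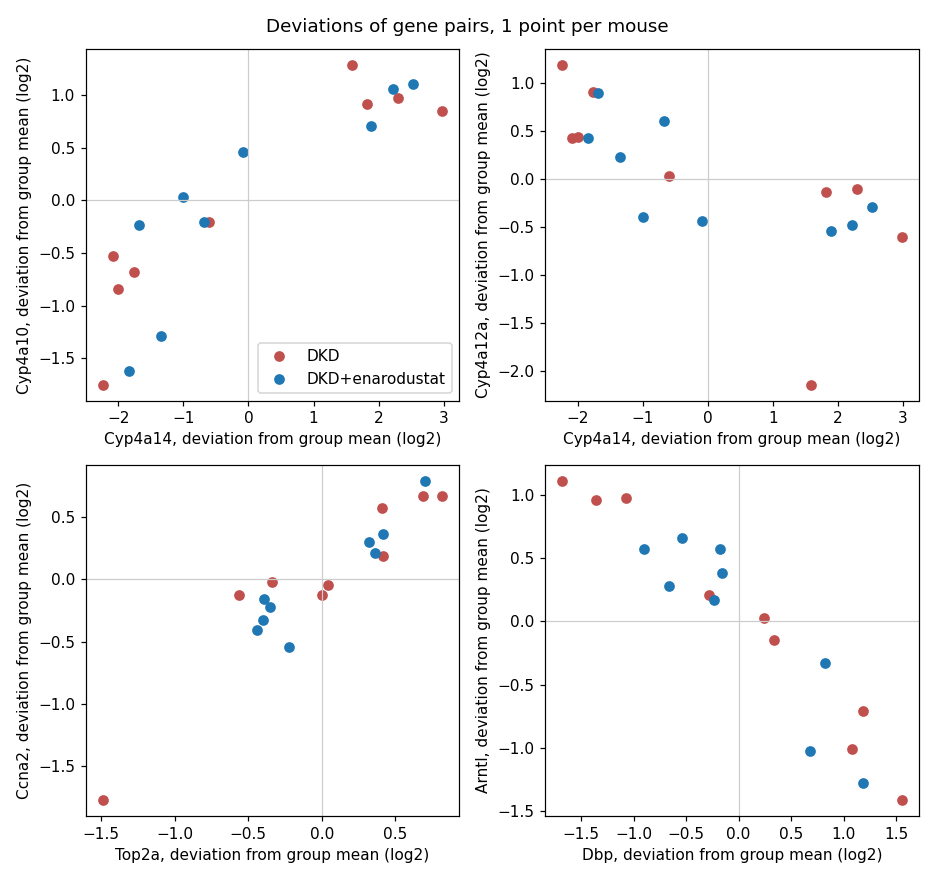
Deviations from the group mean (log2) of gene pairs, 1 point per mouse in DKD (red) and DKD+enarodustat (blue): Cyp4a10 and Cyp4a12a against Cyp4a14, Ccna2 against Top2a, and Arntl against Dbp. Cyp4a10 follows Cyp4a14 in both groups, Arntl opposes Dbp, and 1 DKD mouse sits low in both Top2a and Ccna2.

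The lead gene of the male-biased list was Cyp4a12a, an arachidonic acid hydroxylase that depends on androgen. Cyp4a12a ran from 2.20 over 4.37 to 5.52 in DKD and from 4.12 over 4.37 to 5.55 in DKD+enarodustat. With it 18 genes rose (0.118%) and 14 fell (0.0918%), and of 11 other list members Cyp4a12b and Gusb rose. Cyp4a12b rose by 1.04 ± 0.04 (r = 1.00) and is a near-identical neighbour, so the probes may not separate the copies. Gusb, beta-glucuronidase, a classic androgen-response gene of mouse kidney, rose by 0.90 ± 0.15 (adjusted p = 0.0244, and 0.105 with slide as a block, limma). Slco1a1, an organic anion transporter, and Odc1, which makes polyamines, did not pass, with r of 0.51 and 0.42. The 11 other members had a median r with Cyp4a12a of 0.51, against -0.02 over all genes, and 10 had a positive slope. By an unadjusted p under 0.05 (limma), 7 of them rose and 1 fell. In either direction, 1412 of 15258 genes had such a p. Outside the list the cholecystokinin receptor gene Cckar (0.74 ± 0.09), Anxa13 (1.06 ± 0.16) and Mpped1 (0.82 ± 0.13) rose, and Sorcs2 (-0.76 ± 0.11), Sowahb (-0.53), Spns2 (-0.39) and the proton pump gene Atp12a (-0.51) fell.

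This count moved with many choices: it was 3 with slide as a block, 73 with the 75th percentile as a covariate and 132 after normexp and quantile normalization. It was 7 without DKD replicate 4, 13 without DKD replicate 2, 15 without DKD replicate 1, 17 without DKD replicate 6, 66 without DKD replicate 3, 17 without DKD+enarodustat replicate 7, 18 without DKD+enarodustat replicate 6, 19 without DKD+enarodustat replicate 1, 21 without DKD+enarodustat replicate 9 and 56 without DKD+enarodustat replicate 5.

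Cyp4a14 and Cyp4a12a, cytochromes of one gene cluster, opposed each other. Their r over the 18 mice with group means removed was -0.69 and Spearman's rho -0.78 (permutation p = 0.00113 and 0.00041, 100000 resamples within groups). Of the 28 pairs of lead genes this was the 1 that passed after adjustment over all pairs (p = 0.0316, and 0.0115 for rho). The r was -0.70 in DKD (exact permutation p = 0.0178) and -0.71 in DKD+enarodustat (exact permutation p = 0.0391), and -0.70, -0.76 and -0.79 within the slides. It stayed at -0.70 without the 2 arrays farthest from the median of Cyp4a14 and was -0.69 with slide means removed. After normexp and quantile normalization r was -0.67 and the adjusted permutation p 0.0501. Mpped1 fell with Cyp4a14 and rose with Cyp4a12a. Top2a and Cyp4a12a had an r of 0.69, with a permutation p of 0.00658 and 0.0921 after adjustment. This fell to 0.43 without the 2 arrays farthest from the median, and was 0.99, 0.05 and 0.10 within the slides.

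Of the red cell genes, the globins and Alas2 moved together. With Hba-a1, an alpha globin, 5 genes rose (0.0328%) and 0 fell; by an unadjusted p under 0.05, 743 genes did one or the other. Of 6 other list members, Hba-a2 (0.99 ± 0.05), the beta globin Hbb-bt (1.07 ± 0.07) and Alas2 (1.05 ± 0.09), the first enzyme of haem synthesis in red cell precursors, rose, with adjusted p from 3.88e-10 to 1.90e-06 (limma). Hbb-b1 and Hbb-b2 were the others. Slopes near 1 are changes of about the same fold. The globin genes are near-identical copies that may share probe signal; Alas2 is not related to them. Slc4a1, the red cell anion exchanger that intercalated cells also make, had an r of 0.39, and Bpgm and Fech 0.43 and 0.22. Hba-a1 ran from 6.06 over 6.96 to 7.75 in DKD and from 6.85 over 7.89 to 8.57 in DKD+enarodustat. The part of blood left in the tissue was not tested.

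3 of 14 other clock genes moved with Dbp. With this lead gene, a transcription factor at the output of the clock, Nr1d2 (0.46 ± 0.05) and Tef (0.27 ± 0.04) rose and Arntl (-0.80 ± 0.07), the activator BMAL1 at the core of the loop, fell. In all 2 genes rose (0.0131%) and 4 fell (0.0262%). The others that fell were Dtx4, the cell cycle inhibitor Cdkn1a and Rtl6, each at an adjusted p of 0.0268 (limma). Dbp ran from 1.66 over 3.57 to 4.88 in DKD and from 2.45 over 3.18 to 4.53 in DKD+enarodustat, and second probes of Dbp, Arntl and Nr1d2 had r of 0.98, 0.96 and 0.98 with the first. Nr1d1 and Per3 leaned with Dbp (r = 0.65 and 0.75) and Nfil3, the repressor that opposes Dbp, against it (-0.65), without passing. With slide as a block Arntl and Nr1d2 passed and the other 4 did not. 2 genes also passed without DKD replicate 1, 4 or 6 or without DKD+enarodustat replicate 1, 2, 4 or 9, and 3 without DKD+enarodustat replicate 5.

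Injury genes were variable, and their median r between members was 0.29, with 80.7% of pairs positive. Over all genes measured these values were 0.02 and 51.7%. C3, the central complement protein, had an SD of 1.35 and ran from 1.16 over 1.51 to 5.69 in DKD and from 0.66 over 1.51 to 2.29 in DKD+enarodustat, with a second probe at r = 0.99. Fgg, a fibrinogen chain, had an SD of 1.29, and 0.98 after normexp and quantile normalization. Havcr1, the tubular injury marker KIM-1, had an SD of 1.03 at a low mean level of -3.65, and only 0.33 after that normalization. Lcn2, lipocalin 2 of injured tubules, ran from -1.88 over -1.61 to 0.06 in DKD and from -2.29 over -1.59 to 0.23 in DKD+enarodustat, with 1 high array in each group. With Lcn2 2 genes rose (0.0131%), among them the survival gene Bcl2a1d (0.69 ± 0.11, adjusted p = 0.0399, limma), and 0 fell. The 24 other list members had a median r with Lcn2 of 0.39, against 0.01 over all genes. Of these members 0 passed and 8 had an unadjusted p under 0.05 (limma), all with a positive slope. In either direction, 660 of 15258 genes had such a p. The closest member was Timp1, an inhibitor of matrix proteases (0.48 ± 0.09, adjusted p = 0.0854, limma). Both calls were lost with slide as a block.

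Leaving out 1 array changed the Lcn2 count in most cases. It was 0 without DKD replicate 2, 3, 4, 5, 7 or 9 and without DKD+enarodustat replicate 2, 3, 5 or 6. It was 1 without DKD+enarodustat replicate 1 or 9, 5 without DKD+enarodustat replicate 4 and 7 without DKD+enarodustat replicate 7.

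HIF targets, the pathway on which enarodustat acts, gave no call over both groups. With Slc16a3, the lactate exporter MCT4, 0 genes passed (0% in each direction; 586 had an unadjusted p under 0.05, limma), and 0 of 26 other list members. Slc16a3 ran from -2.13 over -1.82 to -1.60 in DKD and from 0.44 over 1.05 to 1.91 in DKD+enarodustat. Car9, carbonic anhydrase IX, and Pdk1, which diverts pyruvate from mitochondria, were the most variable members, at SDs of 0.85 and 0.80. The median r between HIF targets was 0.11 in DKD and 0.40 in DKD+enarodustat. Ankrd37 had an r with Slc16a3 of -0.04 in DKD and 0.81 in DKD+enarodustat, the glucose transporter Slc2a1 -0.11 and 0.93, and Bnip3, of mitophagy, -0.27 and 0.70. These members were picked after their values were seen. Slc16a3 itself had an SD of 0.20 in DKD and 0.50 in DKD+enarodustat, and a narrow spread of the lead gene can lower r. Fitted in DKD+enarodustat alone, a choice made after these values were seen, 22 of 26 members had a positive slope and 7 had an unadjusted p under 0.05 with a positive slope, while 7.28% of all genes had such a p in either direction and 0 passed after adjustment. In DKD alone 11 of 26 had a positive slope and 0 a p under 0.05 with it, where 1.81% of all genes had such a p in either direction. The difference between the groups was not tested.

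Immediate early genes, which answer handling and injury within minutes, did not follow Fos. 0 genes passed in either direction (0%), with 482 at an unadjusted p under 0.05 (limma), and 2 of 18 other members were among those. Fos ran from 0.50 over 1.01 to 1.64 in DKD and from 0.64 over 1.25 to 2.04 in DKD+enarodustat, and its SD was 0.41, beside 0.85 in sham. The most variable members were Ccn1 at an SD of 0.67 (0.60 in sham), the transcription factors Egr2 at 0.57 (0.83) and Atf3 at 0.55 (1.14), and Ier3 at 0.48 (0.44).

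Other lists are given by their spread. Among podocyte markers Nphs1 (nephrin) had an SD of 0.69, and 0.35 by its second probe (r = 0.55). Among collecting duct markers the water channel Aqp4 and the urea transporter Slc14a2 both had an SD of 0.74. For Slc14a2, 1 DKD array lay below a gap of 2.17. Its median absolute deviation was 0.31, against 0.79 for Aqp4. Jchain, which joins antibody subunits in plasma cells, had an SD of 1.00 and Mzb1, of the same cells, 0.60, with sham SDs of 1.09 and 0.97. Endothelial markers were the steadiest list, with a median SD of 0.18 and 0 of 12 genes above the 75th percentile of all SDs.

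Genes that vary together were also sought without lists. The 300 most variable genes were clustered by their correlations over the 9 DKD arrays, and the clusters were then read in the 9 DKD+enarodustat arrays, which had no part in forming them. 202 genes fell into 11 clusters of at least 8 genes at a mean r of 0.6. Over all pairs of the 300 the median r was 0.07 in DKD and 0.01 in DKD+enarodustat.

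The largest cluster kept its correlation in the other group, but second probes did not share it. It held 56 genes, led by Gm34589, Ppp1r12b, Pou4f1 and St6galnac1, with a median r of 0.83 in DKD and 0.93 in DKD+enarodustat, and 0.90 to 0.94 within slides. It also held 5430431A17Rik, 9430078K24Rik and Tssk5 of the 20 most variable. Of its genes 15 had a second probe, with a median r of -0.23 to the chosen probe, and 1 of the 15 was over 0.6. Ppp1r12b, a myosin phosphatase subunit, had an r of 0.06 between probes.

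A cluster of 33 genes held the PPAR alpha targets Cyp4a14, Cyp4a10, Creb3l3 and Fabp1 beside Abca17, Gm10639, Gsta2 and Golt1a, which led it. Its median r was 0.73 in DKD and 0.24 in DKD+enarodustat, and 7 of its 8 second probes had an r over 0.6. The cluster of Gusb, Angptl7, Slc6a15 and Eddm3b, 18 genes with Cyp4a12b, Cd55 and Dio1 among them, kept a median r of 0.64 after 0.73, and 4 of its 5 second probes were over 0.6. Between these 2 clusters the median r was -0.66 in DKD, which formed them, and -0.39 in DKD+enarodustat.

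The other clusters kept their correlation in DKD+enarodustat to differing degrees. The cluster of Amer3, Prrx2, Nog and Astl had medians of 0.87 and 0.83, but 21 of its 22 genes differed between slides, and its median in DKD+enarodustat was 0.59 with slide means removed. A cluster of 9 genes led by Pnma2, Notch1, Trpm1 and Gm35358 had medians of 0.83 and 0.80. Its mean went with the 75th percentile of the array (r = 0.69), relative to which levels are taken. The histone H4 genes H4f16, H4c11, H4c4 and H4c12 led a cluster of 9 with medians of 0.80 and 0.45; these replication-linked histone transcripts mostly lack poly(A) tails, and near-identical copies may share probe signal. The clusters led by Olfr362, Gm16223 and H2-DMb1 dropped to 0.14, 0.16 and 0.22 in DKD+enarodustat, and those led by A630012P03Rik and Clstn2 to 0.49 and 0.41.

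**Figure D5:**
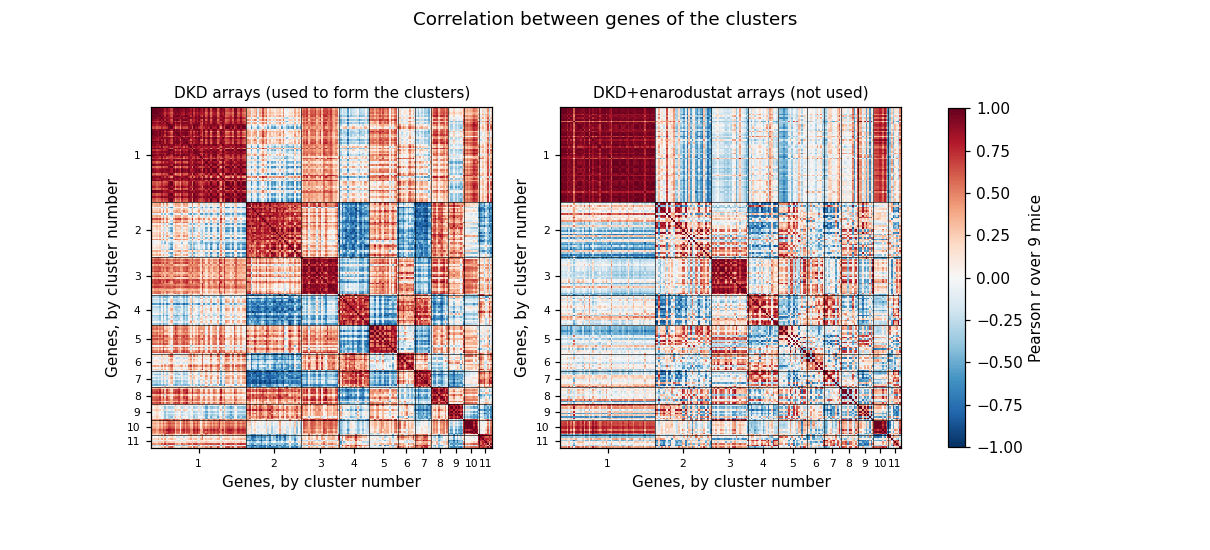
Pearson r (colour, -1 to 1) between the 202 clustered genes over the 9 DKD arrays, which formed the 11 clusters (left), and over the 9 DKD+enarodustat arrays, which did not (right), with genes in the same order and cluster numbers on both axes. Cluster 1 (56 genes) stays at a median r of 0.93 on the right, cluster 2 (33 genes) drops to 0.24 and cluster 3 (22 genes) stays at 0.83.

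Some of the variable genes were neighbours on a chromosome. Of the 300 most variable genes, 50 pairs lay within 5 places of each other in the order of measured genes, with a median absolute r of 0.46, and 38.0% of them were over 0.6. Pairs of the 300 more than 100 places apart on one chromosome had a median of 0.20 (1896 pairs), with 8.33% over 0.6. Adjacent genes over all genes measured had a median of 0.32 (15237 pairs), with 18.3% over 0.6. Close pairs included Cd55 and Cd55b (r = 0.99), C4a and C4b (0.99), H2-D1 and H2-Q7 (0.98), Acot1 and Acot5 (0.97) and Abcb1b and Abcb4 (0.94). All these are pairs of related genes that may share probe signal. Cyp4a12b and Cyp4a14, adjacent and related, ran against each other (r = -0.72), and Cyp4a14 and Cyp4a10 together (0.90).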

How the data were processed

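Kidney RNA of 24 arrays (1 colour, Cy3, 1 array per mouse) was measured, and the 18 diabetic arrays were used. The authors deposited scanner files whose spot signals are intensity values, with background already subtracted by Agilent Feature Extraction (12.1.1.1), per the file headers. Version 11.5.1.1 and limma stand in the submitters' processing notes. A deposited table of log2 values for 31409 probes was set against the scanner files: normexp correction (offset 50) of median spot signals and quantile normalization gave all but 630 of 753816 values within 0.05, so its scale is log2, not centred per gene (column medians 7.543 to 7.559). It served as an alternative. No probe coordinates are printed, since the array grid names another build than the reference.

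From the intensity values, log2 of the processed signal minus the array's 75th percentile was computed. Control spots and 10 outlier values in 7 genes were left out, and spots of 1 probe were averaged. Names came from accessions through RefSeq (GRCm38.p6): 32994 of 56605 probes were named, for 22911 genes, each read by its brightest probe. limma 3.58.1 (R 4.3.3) fitted slopes and slides with Benjamini-Hochberg adjustment over all genes, a threshold of 0.05 and group as a term. Relations between lead genes used permutations within groups. Alternatives were normexp, a looser background filter, slide or replicate number as a block, the 75th percentile as a covariate, the median absolute deviation and leaving out each array. The deposited log2 values and the fit of the HIF lead gene in each group alone were alternatives added after seeing the data.

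Named were the 20 genes with the largest SD, the 5 steadiest above the median level, the lead genes, 4 called genes each way per lead, up to 5 members per list by SD and 4 per cluster; other list members, genes of neighbouring pairs and cluster members were singled out after their values were seen. Some genes that fall under this rule are not reported here. The members, lists and lead genes were chosen with earlier results of these data known. Arrays have no depth in reads; their number, 9 per group, limits the precision.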

Additional observations from a re-analysis of the deposited data

Results flagged for a closer look

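For 150 named genes, each diabetic group was searched for 1 array far from the other 8, and 35 of 300 gene and group sets held one. Chance flags about 1 in 20 for genes taken at random, but many of these genes were chosen for a large SD, which a far array itself raises, so the number is no test. Genes of one pattern share arrays, so the flags are not independent. All values are levels (log2 signal minus the array's 75th percentile) of the far array, and the next array is given for the 7 widest gaps.

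A far low array in DKD was seen for Eif4g1 (-2.77, next 3.58), Slc14a2 (-2.06, next 0.52), Pde5a (-3.17, next 1.15), Pianp (-4.87, next -1.21), Ceacam13 (-4.63, next -1.81), H2-Eb1 (-1.65, next 2.52), Olfr441 (-4.89), Nfasc (-5.40), Olfr362 (-5.25), Olfr681 (-3.90), Flt1 (2.26), Ier3 (-0.27) and Cyp24a1 (-0.75). The proliferation genes Ccna2 (-3.89), Cenpf (-5.15), Kif20a (-3.69), Prc1 (-3.48) and Nusap1 (-4.17) were low on 1 DKD array as well. A far high array in DKD was seen for Lcn2 (0.06), Bcl2a1d (-0.71), Aqp4 (2.32), Trpm1 (3.09), Gm35358 (0.66) and Creb3l3 (-0.11).

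In DKD+enarodustat the far array was high for Gas1 (5.49, next -0.82), the heat shock genes Hspa1a (2.95) and Hspa1b (1.37), Pla2g2c (0.06), Lcn2 (0.23), Havcr1 (-1.78) and Chac1 (-0.49). It was low for Cenpf (-3.77), Egr2 (-2.60), Eif4g1 (3.54) and H4c4 (1.31).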

How the results depend on the processing

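The main results were set against 59 alternative values without a left-out array. Of these 37 stayed (counts within 1.5 times, median r of clusters and second probes within their spread) and 22, all counts, did not. The 37 include counts for Fos and Slc16a3 that were 0 before and after, where there were no calls to lose. The list of the 20 most variable genes kept 2 under the looser background filter and 8 by the median absolute deviation, 14 in the deposited values, and 16 to 20 without 1 array. With slide as a block the counts were 111 for Cyp4a14, 3 for Cyp4a12a, 2 for Dbp and 0 for Lcn2, against 178, 32, 6 and 2. With the 75th percentile as a covariate they were 289 for Cyp4a14, 73 for Cyp4a12a and 4 for Lcn2. After normexp and quantile normalization they were 32 for Top2a (65 before), 132 for Cyp4a12a, 5 for Lcn2 and 1 for Slc16a3, and 0 pairs of lead genes passed (1 before). Under the looser filter the Lcn2 count was 0. Arrays with the same replicate number did not deviate together (median r 0.10, from -0.34 to 0.29, with 5 of 9 pairs over 0.1 and 0 arrays closest to their own number), so the numbers were not taken as pairs. With the replicate block the counts were 7 for Cyp4a14, 0 for Top2a, 1 for Cyp4a12a, 3 for Hba-a1, 0 for Dbp and 0 for Lcn2. With it, 7 pairs of lead genes passed. Each number holds 1 array of each group, so this block makes the deviations of the groups mirror images of each other. The permutation treated them as separate values, so its p-values are too small and no conclusion is drawn from the 7 pairs. The slide test takes no replicate block, since numbers lie within slides. The cause of the other moves was not tested. Leaving out 1 array gave 1063 to 1310 genes that differ between slides, 83 to 228 for Cyp4a14, 31 to 73 for Top2a, 7 to 66 for Cyp4a12a, 4 to 7 for Hba-a1, 2 to 6 for Dbp, 0 to 7 for Lcn2 and 0 for Fos and Slc16a3.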
